A study of Caenorhabditis elegans with 24 samples.

Results

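Nuclear hormone receptors are transcription factors with a zinc-finger DNA-binding domain and a ligand-binding domain, through which many of them respond to sterols, fatty acids, vitamins, bile-acid-like hormones or foreign compounds. The family is unusually large in C. elegans, mainly through duplication of genes related to HNF4, the mammalian receptor of liver metabolism. A few members are conserved in insects and vertebrates and act in moulting, epidermal fate and the reproductive system, several tune intestinal fat, propionate and methionine metabolism, and most of the duplicated genes have no assigned role. All genes whose name begins with nhr- were taken, in young adult hermaphrodites of 6 genotypes, if their mean rlog (a variance-stabilised read count on the log2 scale) was 3 or more in at least one of the 2 deposited tables. This left 181 of the 244 genes with such a name, among 20549 genes listed in either table, and all 181 are protein-coding.

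The series asked whether 2 hypomorphic alleles of bcl-11, the worm gene for a C2H2 zinc-finger factor related to BCL11A and BCL11B, alter gene expression in wild-type animals and in animals with reduced insulin/IGF-1 signalling. The mutant groups were daf-2(e1370);bcl-11(bon125), daf-2(e1370);bcl-11(bon144), daf-2(e1370), bcl-11(bon125) and bcl-11(bon144), and the wild type was the N2 strain (wt). The e1370 allele reduces the function of DAF-2, the only insulin/IGF-1 receptor of the worm. bon125 is a frameshift that leaves the C2H2 zinc fingers intact, bon144 is an in-frame edit in a conserved stretch, both are viable as homozygotes, and each allele is 1 edited line. Whole worms were collected on the first day of young adulthood after growth at 20 °C on OP50-1 bacteria, with 4 libraries for each genotype, numbered 1 to 4 by batch. The 12 libraries without daf-2(e1370) and the 12 libraries with it were normalised by the authors in separate tables, so each allele was tested within a table, levels from both are only set side by side, and the tables were joined only to compare an allele's change in one with its change in the other.

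Depth per library is unknown, because the tables hold no counts. The median rlog of all genes kept was 7.59 to 7.70 in the libraries of the daf-2 table and 7.55 to 7.68 in those of the wild-type table. bcl-11 itself had a mean rlog of 7.19 ± 0.10 in daf-2;bcl-11(bon125), 7.02 ± 0.10 in daf-2;bcl-11(bon144) and 7.08 ± 0.27 in daf-2 worms (SD, n = 4 each). It was 6.15 ± 0.20 in bcl-11(bon125), 6.65 ± 0.43 in bcl-11(bon144) worms and 6.37 ± 0.20 in wt worms (SD, n = 4 each). The alleles change the protein, so this level does not check the labels. The 4 bcl-11(bon144) libraries of the wild-type table lay far apart on the first principal component (at -33.81, 29.51, 62.71 and -11.70, for 43.3% of the variance). The mean rlog of 5 sperm genes was 4.61, 8.08, 10.79 and 4.64 in these libraries and 4.80 to 7.58 in the wt libraries. In the daf-2 table daf-2 replicate 4 stood apart on the first component (at 40.70, with the next library at 10.52), with sperm genes at 8.26 against 5.22 to 6.26 in the other daf-2 libraries, and it serves as control in both daf-2 comparisons. Intestinal marker genes averaged 14.3 to 15.6 in every library.

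Of the 181 receptor genes 180 had a mean rlog of 3 or more over the 12 libraries of the daf-2 table, and 171 members did in the wild-type table. Of these, 170 reached the minimum in both tables, 10 in the daf-2 table alone and 1 (nhr-7) in the wild-type table alone. Of all genes 14169 reached it in the daf-2 table, 13459 in the wild-type table and 13131 in both, so the daf-2 table kept more genes in general. Just inside the minimum in the daf-2 table were nhr-219 and nhr-60 (3.08 each), and just outside it were nhr-7 and nhr-155 (2.87 each). For the wild-type table nhr-54 (3.02) was just inside and nhr-263 (2.79) just outside.

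Levels of different genes were compared as the mean rlog less the log2 of the exon length in kb (length-adjusted level). On this scale most receptor genes lay in the lower part of the transcriptome. Their median was 5.73 in daf-2 worms, at percentile 31.6 of all genes kept, and 5.38 in wt worms, at percentile 29.2. Only 28 of 180 lay above percentile 50 in daf-2 worms and 24 of 171 in wt worms.

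The highest length-adjusted levels belonged to receptors of intestinal metabolism. nhr-68 (chromosome V, 11573440 to 11575709, plus strand, WBcel235), the second receptor of the switch that turns on propionate breakdown when vitamin B12 is low, stood at 9.59 in daf-2 and 9.34 in wt worms. nhr-49 (chromosome I, 9869651 to 9874680, plus strand), an HNF4-related activator of fatty acid desaturation and beta-oxidation, stood at 9.39 in daf-2 and 9.20 in wt worms. nhr-114 (chromosome V, 4187202 to 4190008, plus strand), which keeps methionine-cycle genes on at low B12, stood at 8.83 in daf-2 and 9.09 in wt worms. In wt worms nhr-49 was within 1 SD of nhr-68 (SD 0.16) on one side and of nhr-114 (SD 0.22) on the other, so neighbours in this order did not differ beyond their spread. In daf-2 worms nhr-46 (8.78), which did not differ from nhr-114 beyond its spread (SD 0.23), and nhr-122 (8.59) came next, and in wt worms nhr-86 (8.34), a receptor that senses bacterial toxins, and nhr-2 (8.33), a receptor of embryonic development. Even nhr-68 was only at percentile 83.9 of all genes in daf-2 and 79.5 in wt worms.

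The lowest length-adjusted levels among genes that reached the minimum were those of nhr-60 (2.57) and nhr-207 (2.73) in daf-2 worms and of nhr-7 (2.18) in wt worms. The spread between replicates of 1 genotype is on the rlog scale, which shrinks differences of weakly expressed genes, so it was not read as reproducibility. The SD of rlog, averaged over the 3 genotypes of a table, had a median of 0.15 (0.06 to 0.34) in the daf-2 table and 0.18 (0.08 to 0.42) in the wild-type table. It was largest for nhr-208 (0.34), nhr-97 (0.28) and nhr-206 (0.27) in the daf-2 table. The wild-type table had it largest for nhr-25 (0.42) and nhr-43 (0.42), followed by nhr-67 (0.39), a tailless-family receptor of the anchor cell and uterus.

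Receptor genes on chromosome V had lower levels than those elsewhere. Chromosome V held 116 of the 181 members (64.1%) but 19.9% of all genes kept. In daf-2 worms the members on chromosome V had a median length-adjusted level of 4.99 and the members elsewhere 6.69, and in wt worms these medians were 4.94 and 6.22. Outside chromosome V the members numbered 24 on IV, 16 on X, 11 on I, 9 on II and 5 on III.

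**Figure D1:**
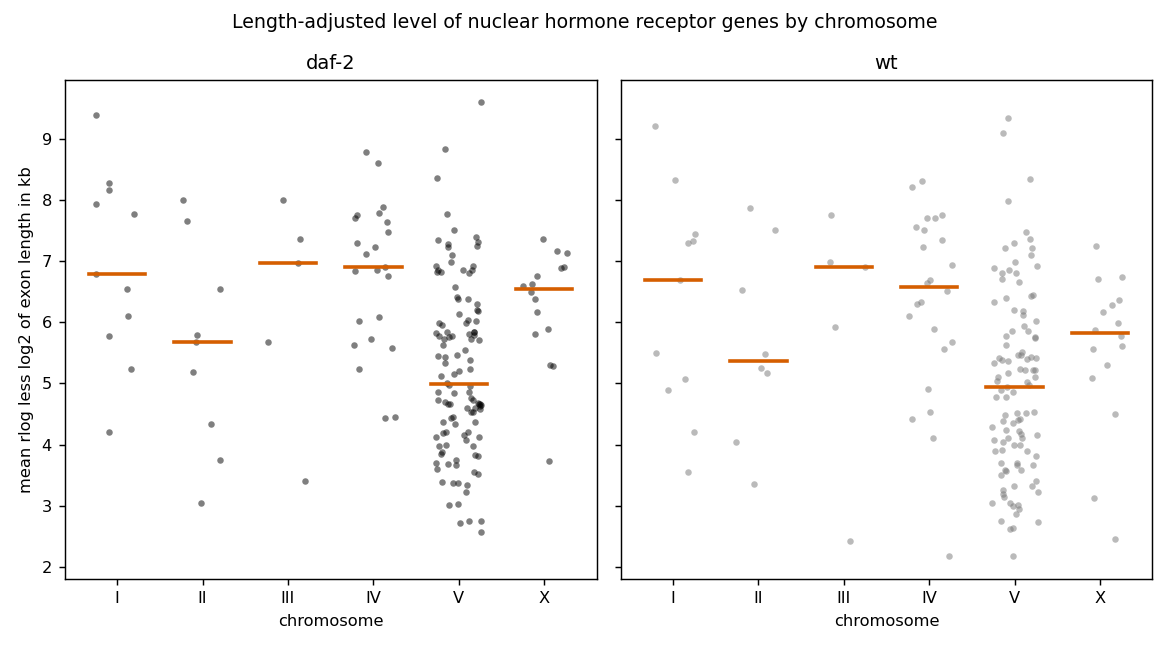
Length-adjusted level (mean rlog less log2 of exon length in kb) of each nuclear hormone receptor gene by chromosome, in daf-2 worms (180 genes) and in wt worms (171 genes); each point is a gene and the orange bar is the median. The chromosome V genes reach from the bottom of the scale to nhr-68 at 9.59 in daf-2 worms, and their median (4.99 in daf-2, 4.94 in wt) lies below that of the members elsewhere (6.69 in daf-2, 6.22 in wt).

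Many members were neighbours. With a gap of at most 10000 bp between 1 member and the next, 28 runs held 100 of the 181 members, 81 of them on chromosome V. The longest run held 12 members (chromosome V, 451451 to 497297: nhr-123, nhr-98, nhr-203, nhr-202, nhr-201, nhr-99, nhr-55, nhr-130, nhr-212, nhr-211, nhr-106 and nhr-131). Levels within it were uneven. The length-adjusted level of nhr-55 was 7.51 in daf-2 and 7.35 in wt worms, while that of nhr-123, at its left end, was 3.84 in daf-2 and 2.86 in wt worms. A run of 7 on chromosome V (12092006 to 12109313) began with nhr-206 and nhr-208, whose values are given with the daf-2 and wt levels. Libraries were not strand-specific and 42 members overlap the span of another gene listed in either table, so their values may include reads of that neighbour. The rest (139) overlap none of the listed genes. No member had values identical to those of another gene in every library.

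The first comparison asked what each bcl-11 allele changed in an otherwise wild-type animal, with limma fitted to all genes of a table and a call defined as a Benjamini-Hochberg adjusted p under 0.05 with a change of more than 1.5-fold. No receptor gene was called with either allele. In bcl-11(bon125) worms 0 of 171 members were called, and 0% of the 13459 genes tested were. At an unadjusted p under 0.05 stood 3 members (1.75%), against 1.55% of all genes. In bcl-11(bon144) worms 0 of 171 were called, against 0.0669% of all genes (9 genes), and 8 members (4.68%) had an unadjusted p under 0.05, against 7.1% of all genes. The labels name replicates and batches but not separate cultures, so p-values measure the spread between these libraries. The paper reports dysregulated genes for each allele against wild-type animals, far more for the frameshift allele than for the in-frame edit. The lack of calls with bcl-11(bon125) holds for this limma fit on rlog values, and does not show that the allele changes no gene. Why it differs from the paper's count was not tested. A test on counts was not run, because the tables hold none.

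The intervals bound how large a change could be. The standard error of a member's change had a median of 0.14 (0.09 to 0.27) in the wild-type table. The 95% interval lay wholly within a 1.5-fold change for 152 of 171 members (88.9%) in bcl-11(bon125) worms, against 77.2% of all genes, and for 154 of 171 (90.1%) in bcl-11(bon144) worms, against 70.7% of all genes. rlog shrinks differences of weakly expressed genes, so for the members at the low end these intervals are narrower than the reads alone would allow. Members ranged over -0.43 to 0.27 in bcl-11(bon125) worms, with a median of -0.07 against -0.01 for all genes and 51 members higher and 120 lower. In bcl-11(bon144) worms they ranged over -0.45 to 0.33, with a median of -0.02 against 0.01 for all genes and 77 higher and 94 lower. With 1 library left out these medians ran from -0.10 to -0.03 for bcl-11(bon125), the smallest without wt replicate 3, and from -0.04 to 0.02 for bcl-11(bon144). The bcl-11(bon144) median turned sign without wt replicate 3 or without bcl-11(bon144) replicate 2 or 4, so it has no settled direction. These differences come from whole animals, in which fewer cells of a type and less RNA per cell cannot be told apart.

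The member furthest from wt in bcl-11(bon125) worms was nhr-132 (chromosome V, 534446 to 536247, plus strand). Its rlog was 5.85, 5.83, 5.84 and 5.96 in bcl-11(bon125) libraries, 5.91, 6.23, 6.15 and 6.05 in bcl-11(bon144) libraries and 6.46, 6.17, 6.43 and 6.12 in wt libraries (here and below in the order of replicates 1 to 4). All bcl-11(bon125) values lay below all wt values, with a change of -0.43 (SE 0.13, 95% interval -0.70 to -0.15, limma adjusted p = 1.00). In bcl-11(bon144) worms the values overlapped with wt and the change was -0.21. Across all members 4 had every bcl-11(bon125) library below every wt library (nhr-47, nhr-55, nhr-132 and nhr-168), against 1.06% of all genes, and 0 had the opposite, against 0.884%.

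nhr-47 (chromosome V, 5505253 to 5509956, plus strand) had rlog values of 8.84, 8.87, 8.74 and 8.52 in bcl-11(bon125) libraries and 8.95, 8.99, 9.11 and 9.04 in wt libraries. These groups were narrowly separated, with a change of -0.28 (SE 0.12, 95% interval -0.55 to -0.01, limma adjusted p = 1.00). nhr-134 (chromosome V, 2231223 to 2233381, plus strand) was the furthest above wt. It had 7.54, 7.57, 7.43 and 7.33 in bcl-11(bon125) libraries and 7.50, 6.92, 7.20 and 7.19 in wt libraries, so the groups overlapped although each library was above the wt library of its batch (change 0.27, SE 0.16).

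In bcl-11(bon144) worms the smallest adjusted p of any member was that of nhr-228 (chromosome V, 2281759 to 2284963, plus strand), limma adjusted p = 0.446. Its rlog was 7.20, 7.27, 7.24 and 7.12 in bcl-11(bon144) libraries and 7.57, 7.56, 7.60 and 7.64 in wt libraries. Both groups were tight and did not overlap, with a change of -0.38 (SE 0.11, 95% interval -0.63 to -0.14). The change of nhr-228 was -0.13 in bcl-11(bon125) worms, which were set against the same wt libraries. A nearby member, nhr-115 (chromosome V, 2292540 to 2294800, plus strand), had 6.81, 6.64, 6.83 and 6.84 in bcl-11(bon144) libraries, 6.78, 6.76, 6.56 and 6.97 in bcl-11(bon125) libraries and 6.93, 7.22, 7.11 and 7.09 in wt libraries. Its bcl-11(bon144) values lay below all wt values (change -0.31, SE 0.13), while replicate 4 of bcl-11(bon125) lay above replicate 1 of wt (change -0.32, SE 0.13), and both changes are taken against the same wt libraries.

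The DAF-12 group of sterol receptors gave one of the lowest and one of the highest changes in bcl-11(bon144) worms. nhr-48 (chromosome X, 15708213 to 15716875, plus strand), a close relative of DAF-12 and NHR-8, had an rlog of 6.83, 6.99, 6.90 and 6.66 in bcl-11(bon144) libraries, 7.04, 7.23, 6.48 and 6.98 in bcl-11(bon125) libraries and 7.39, 7.12, 7.24 and 7.34 in wt libraries. The bcl-11(bon144) libraries lay below every wt library (change -0.43, SE 0.16, 95% interval -0.77 to -0.09, limma adjusted p = 0.622), and the bcl-11(bon125) libraries overlapped with them (change -0.34, SE 0.16). nhr-8 (chromosome IV, 7710983 to 7714210, plus strand), which acts in sterol balance and resistance to foreign compounds, had 9.11, 8.80, 9.03 and 9.04 in bcl-11(bon144) libraries and 8.94, 8.62, 8.79 and 8.31 in wt libraries. Each bcl-11(bon144) library was above the wt library of its batch but the groups overlapped (change 0.33, SE 0.15, 95% interval 0.02 to 0.65, limma adjusted p = 0.698). daf-12 itself, the receptor of dafachronic acids, changed by -0.12 in bcl-11(bon144) worms and by -0.19 with bon125.

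In all, 6 members had every bcl-11(bon144) library below every wt library (nhr-48, nhr-61, nhr-115, nhr-228, nhr-230 and nhr-245), against 2.44% of all genes, and 1 (nhr-184) had the opposite, against 1.69% of all genes. nhr-61 (chromosome II, 14816136 to 14818543, minus strand) had 7.81, 7.61, 7.34 and 7.66 in bcl-11(bon144) libraries and 8.06, 7.94, 8.02 and 7.84 in wt libraries, lower in every batch (change -0.36). nhr-245 (chromosome I, 11477744 to 11480071, plus strand) had 4.94, 5.12, 4.40 and 4.87 in bcl-11(bon144) libraries and 5.27, 5.14, 5.28 and 5.17 in wt libraries. Here replicate 3, the library with the highest sperm genes, was the lowest, and the part of that library's composition in the change (-0.39, SE 0.15) was not tested. The largest change in either direction was that of nhr-43 (chromosome IV, 11899590 to 11902976, plus strand), with 7.36, 6.49, 7.17 and 6.59 in bcl-11(bon144) libraries and 7.31, 6.93, 7.96 and 7.23 in wt libraries. Its replicates were among the most variable of the table, the groups overlapped, and the 95% interval of the change (-0.45) ran from -1.02 to 0.12.

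**Figure D2:**
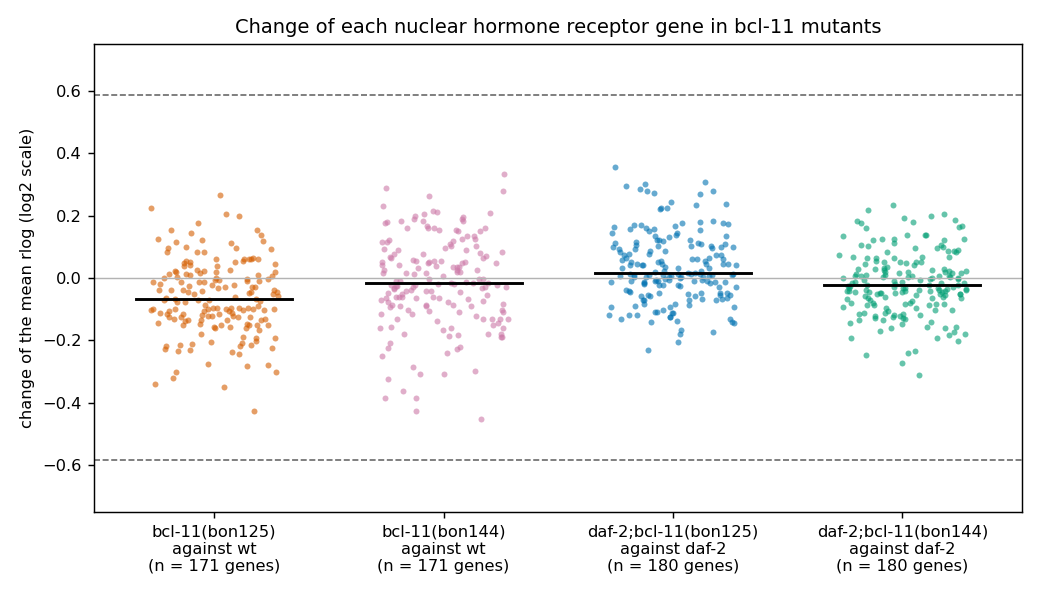
Change (log2 scale) of each nuclear hormone receptor gene in 4 comparisons, with 171 genes in each wild-type comparison and 180 in each daf-2 comparison; points are genes, the black line is their median and the dashed lines mark a 1.5-fold change. Every point lies inside the dashed lines, and the medians are 0.02 and -0.02 in the daf-2 background and -0.07 and -0.02 in the wild-type background, and both bon144 medians turn sign with 1 library left out (to 0.01 in the daf-2 background and 0.02 in the wild-type background).

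In the daf-2 background the question was whether the same alleles alter receptor expression when insulin signalling is reduced, and again no member was called. In daf-2;bcl-11(bon125) worms 0 of 180 were called, against 0.0141% of the 14169 genes tested (2 genes), and 7 members (3.89%) had an unadjusted p under 0.05, against 4.11% of all genes. In daf-2;bcl-11(bon144) worms 0 of 180 were called, against 0.0565% of all genes (8 genes), and 3 members (1.67%) had an unadjusted p under 0.05, against 3.47% of all genes. The precision was higher than in the wild-type table, with a median SE of 0.12 (0.06 to 0.22). The 95% interval lay within a 1.5-fold change for 176 of 180 members (97.8%) in daf-2;bcl-11(bon125) worms, against 90.3% of all genes, and for 178 of 180 (98.9%) in daf-2;bcl-11(bon144) worms, against 90.6%.

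Members ranged over -0.23 to 0.36 in daf-2;bcl-11(bon125) worms, with a median of 0.02 against 0.00 for all genes, and 71 of 180 were lower and the rest higher. That median ran from 0.00 (without daf-2;bcl-11(bon125) replicate 2) to 0.06 (without daf-2 replicate 2) with 1 library left out. The highest was nhr-22 (chromosome II, 6446195 to 6449792, minus strand). Its rlog was 8.81, 8.81, 9.05 and 9.09 in daf-2;bcl-11(bon125) libraries, 8.80, 8.60, 8.59 and 8.70 in daf-2;bcl-11(bon144) libraries and 8.63, 8.66, 8.60 and 8.45 in daf-2 libraries. The daf-2;bcl-11(bon125) libraries were above all daf-2 libraries (change 0.36, SE 0.10, 95% interval 0.15 to 0.57, limma adjusted p = 1.00, and 0.31 without daf-2 replicate 4), and the daf-2;bcl-11(bon144) libraries overlapped with daf-2. With nhr-181, nhr-22 made up the 2 members whose daf-2;bcl-11(bon125) libraries were all above daf-2, against 1.02% of all genes, and 1 (nhr-179) had them all below, against 0.755%. All 7 members with an unadjusted p under 0.05 were higher in daf-2;bcl-11(bon125) worms (nhr-22, nhr-68, nhr-69, nhr-73, nhr-125, nhr-181 and nhr-232), with changes of 0.22 to 0.36.

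nhr-68 had an rlog of 10.04, 10.52, 10.53 and 10.05 in daf-2;bcl-11(bon125) libraries and 9.91, 10.15, 9.87 and 10.09 in daf-2 libraries. The groups overlapped and 3 of 4 batches were higher (change 0.28, SE 0.12, 95% interval 0.01 to 0.54). At the other end stood nhr-105 (chromosome IV, 7050156 to 7053450, plus strand), with 7.93, 8.36, 7.96 and 7.71 in daf-2;bcl-11(bon125) libraries and 7.87, 8.45, 8.39 and 8.17 in daf-2 libraries, overlapping and with a change of -0.23 (SE 0.15).

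In daf-2;bcl-11(bon144) worms members ranged over -0.31 to 0.23, with a median of -0.02 against 0.00 for all genes and 74 higher and 106 lower. With 1 library left out that median ran from -0.04 (without daf-2 replicate 1) to 0.01 (without daf-2 replicate 2). The lowest was nhr-80 (chromosome III, 11985 to 14869, minus strand), a partner of NHR-49 in oleic acid synthesis. Its rlog was 7.92, 7.93, 8.00 and 7.85 in daf-2;bcl-11(bon144) libraries and 8.09, 8.45, 8.01 and 8.37 in daf-2 libraries. The highest daf-2;bcl-11(bon144) value, 8.00, lay just under the lowest daf-2 value, 8.01, so the separation is narrow (change -0.31, SE 0.12, 95% interval -0.57 to -0.05, limma adjusted p = 1.00, and -0.26 without daf-2 replicate 4). nhr-139 (chromosome V, 6986132 to 6987773, minus strand) had 4.44, 4.35, 4.67 and 4.37 in daf-2;bcl-11(bon144) libraries and 4.24, 4.29, 4.33 and 4.25 in daf-2 libraries, above in every library by a small step (change 0.18, SE 0.08). It was the 1 member with this pattern, against 1.16% of all genes, and 2 (nhr-80 and nhr-122) had all libraries below daf-2, against 1.15%.

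Whether an allele acted differently in the daf-2 background was tested as an interaction across the 24 libraries, on the 170 members kept in both tables. The tables were normalised apart, so rlog may shrink the changes of a gene unequally in the 2. The part of such shrinkage in the interaction was not tested. For bon125, 0 of 170 members were called, against 0% of the 13131 genes tested, and 14 members (8.24%) had an unadjusted p under 0.05, against 3.39% of all genes. For bon144, 0 of 170 were called, against 0.0609% of all genes (8 genes), and 2 members (1.18%) had an unadjusted p under 0.05, against 2.72% of all genes. The median difference between the changes in the 2 backgrounds was 0.10 for bon125, against 0.00 for all genes, and 0.00 for bon144, against 0.00 for all genes. For nhr-22 the change with bon125 was 0.36 in the daf-2 background and -0.16 in the wild-type background, a difference of 0.52 (SE 0.17, 95% interval 0.16 to 0.87, limma adjusted p = 1.00).

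For bon144 the 2 members were nhr-8 and nhr-184. nhr-184 (chromosome V, 2212871 to 2214478, minus strand) had rlog values of 4.33, 4.50, 4.65 and 4.59 in daf-2;bcl-11(bon144) libraries and 4.57, 4.71, 4.78 and 4.81 in daf-2 libraries, lower in every batch (change -0.20). In the wild-type table it had 4.16, 3.93, 4.31 and 4.05 in bcl-11(bon144) libraries and 3.85, 3.81, 3.91 and 3.73 in wt libraries, higher in every library (change 0.29, SE 0.12, and 0.16 without bcl-11(bon144) replicates 1 and 3, for which the difference below was not refitted). The difference of the changes was -0.49 (SE 0.14, 95% interval -0.79 to -0.19, limma adjusted p = 1.00). For nhr-8 that difference was -0.50 (SE 0.23). Interaction standard errors had a median of 0.19, and the 95% interval lay within a 1.5-fold difference for 108 of 170 members (63.5%) with bon125, against 53.2% of all genes, and for 124 (72.9%) with bon144, against 57.4%, so a smaller share of members is bounded here than for the single comparisons.

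The receptors with a known role were followed as lists, none of which had a member past the adjusted threshold in any comparison with limma. The moulting and epidermis list has 5 receptors, of which 3 were measured, while nhr-85 (mean rlog 2.39 in the daf-2 table and 1.32 in the wild-type table) and nhr-41 (2.40 in the daf-2 table and 1.41 in the wild-type table) were under the minimum. nhr-23 (chromosome I, 7214745 to 7221299, plus strand), the ROR-family receptor that paces the moulting cycle, changed by -0.01 in daf-2;bcl-11(bon125), -0.04 in daf-2;bcl-11(bon144), 0.10 in bcl-11(bon125) worms and -0.04 in bcl-11(bon144) worms. nhr-25, the Ftz-F1/SF-1-family receptor of moulting and epidermal fate, changed by 0.18, 0.14, -0.12 and 0.02 in the same order.

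Of the lipid and fasting list all 7 receptors were measured, and 1 member (nhr-80) reached an unadjusted p under 0.05 in 1 comparison. The rlog of nhr-49 was 10.40, 10.61, 10.57 and 10.58 in daf-2;bcl-11(bon125) libraries, 10.69, 10.53, 10.61 and 10.51 in daf-2;bcl-11(bon144) libraries and 10.48, 10.58, 10.42 and 10.44 in daf-2 libraries. In the wild-type table it was 10.38, 10.23, 10.19 and 10.25 in bcl-11(bon125) libraries, 10.22, 10.55, 10.60 and 10.42 in bcl-11(bon144) libraries and 10.28, 10.26, 10.30 and 10.34 in wt libraries. The groups overlapped in every comparison, and the 95% intervals of the change were -0.12 to 0.24 in daf-2;bcl-11(bon125), -0.08 to 0.29 in daf-2;bcl-11(bon144), -0.26 to 0.19 in bcl-11(bon125) worms and -0.08 to 0.38 in bcl-11(bon144) worms. nhr-66, a partner of NHR-49 at sphingolipid genes, changed by -0.03 in both double mutants, 0.06 with bon125 alone and -0.06 with bon144 alone, the last at 0.22 without bcl-11(bon144) replicates 1 and 3. nhr-62, needed for the longevity of diet-restricted worms, changed by -0.28 (SE 0.22) in bcl-11(bon125) worms, the largest change of that list in the wild-type table. This change leans on wt replicate 3, which stood apart at 6.87 (nearest wt library 6.07), against a mean of 5.94 in bcl-11(bon125) worms.

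The 3 receptors of propionate, B12 and methionine metabolism had median changes of 0.13 in daf-2;bcl-11(bon125), 0.10 in daf-2;bcl-11(bon144), -0.10 in bcl-11(bon125) worms and -0.06 in bcl-11(bon144) worms. nhr-114 had 9.48, 9.46, 9.48 and 9.85 in daf-2;bcl-11(bon125) libraries, 9.16, 9.38, 9.02 and 9.44 in daf-2;bcl-11(bon144) libraries and 9.41, 9.75, 9.37 and 9.21 in daf-2 libraries, overlapping throughout (changes 0.13 and -0.18, SE 0.14). Of the 7 receptors of foreign compounds, sterols and stress, nhr-86, nhr-45, nhr-176, nhr-57 and nhr-14 changed by -0.24 to 0.21 over the 4 comparisons. nhr-57, induced by hypoxia through HIF-1, had the lowest of these values (-0.24, SE 0.20, in bcl-11(bon144)), and nhr-45, which acts in detoxification, the highest (0.21, SE 0.16, in bcl-11(bon144)). The 5 receptors of reproductive tissue, muscle and excretory cell included nhr-6, an NR4A-family receptor of the spermatheca, at -0.21 (SE 0.18) in daf-2;bcl-11(bon125) worms and at -0.27 (SE 0.18) with bon144. nhr-2 was at 0.29 (SE 0.14) in daf-2;bcl-11(bon125), 0.23 (SE 0.14) in daf-2;bcl-11(bon144), -0.23 (SE 0.17) in bcl-11(bon125) worms and 0.05 (SE 0.17) in bcl-11(bon144) worms. Without daf-2 replicate 4 the changes of nhr-2 in the double mutants were 0.15 with bon125 and 0.10 with bon144.

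**Figure D3:**
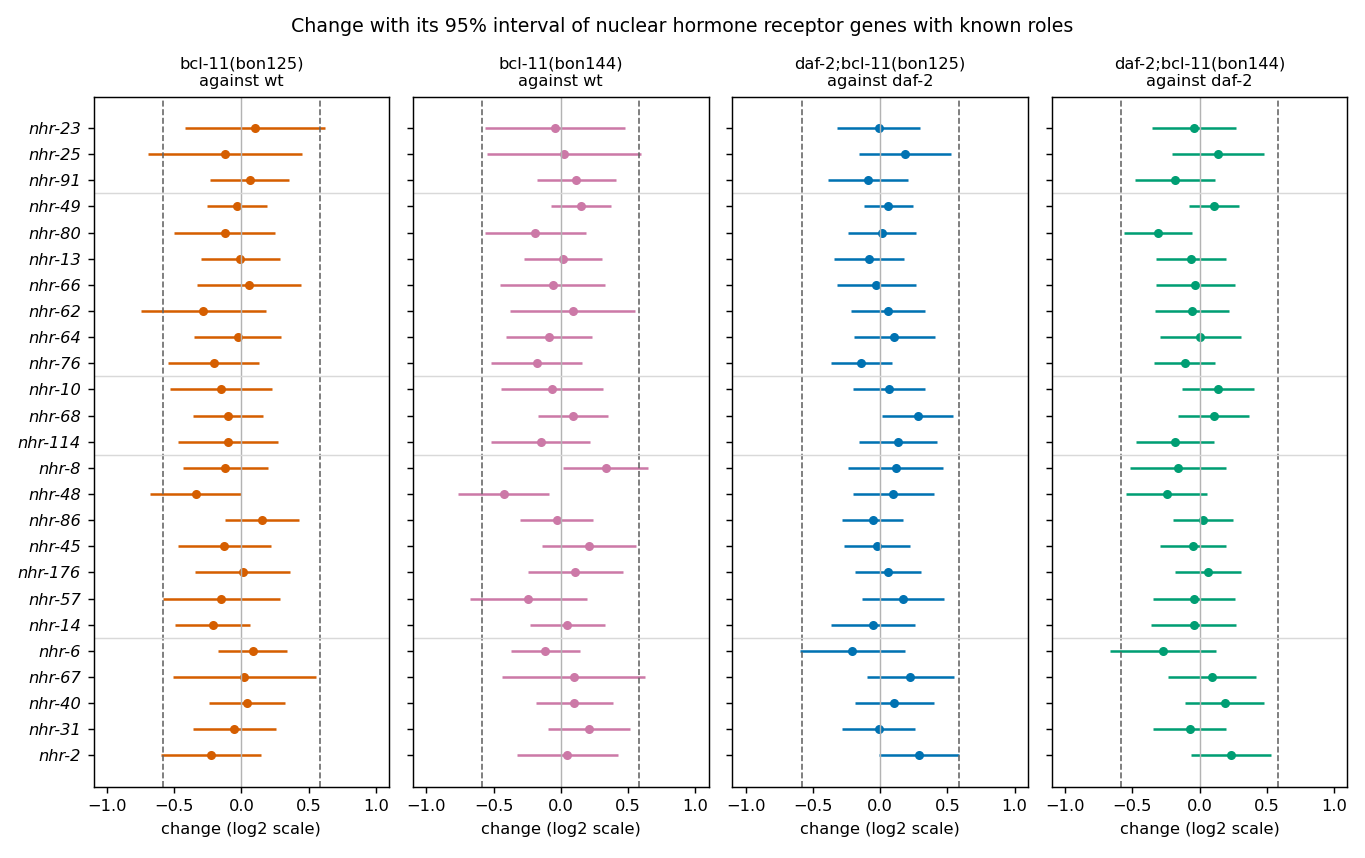
Change (log2 scale, with its 95% interval) of 25 receptor genes with a known role in 4 comparisons; gray lines separate the role lists and dashed lines mark a 1.5-fold change. Points stand close to 0 in every list; nhr-48 in bcl-11(bon144) worms (-0.43) and nhr-80 in daf-2;bcl-11(bon144) worms (-0.31) have intervals below 0, and nhr-8 in bcl-11(bon144) worms (0.33) and nhr-68 in daf-2;bcl-11(bon125) worms (0.28) above 0.

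Genes that work with the receptors were also not past the adjusted threshold of limma. The 4 coregulators had negative changes in all 4 comparisons. Their medians were -0.05 in daf-2;bcl-11(bon125), -0.15 in daf-2;bcl-11(bon144), -0.22 in bcl-11(bon125) worms and -0.31 in bcl-11(bon144) worms. The paired comparisons share their daf-2 or wt libraries. In daf-2;bcl-11(bon125) worms every change was smaller than its SE, from -0.002 (SE 0.18, cbp-1) to -0.10 (SE 0.16, sbp-1). In bcl-11(bon144) worms mdt-15, the Mediator subunit that binds NHR-49, was at -0.13. There sbp-1, the SREBP factor of lipid synthesis, was at -0.42 (SE 0.16, limma adjusted p = 0.63). Of 9 genes known as receptor targets, fat-5, a desaturase under NHR-49, was at -0.52 (SE 0.21, limma adjusted p = 0.66) in bcl-11(bon144) worms, and the median of the 9 was between -0.08 and 0.03 in the 4 comparisons. The 4 genes listed for the metabolism of dafachronic acids, the ligands of DAF-12, were daf-36, dhs-16, daf-9 and the sterol methyltransferase strm-1. Of these daf-36, a Rieske oxygenase, was at 0.44 (SE 0.11, limma adjusted p = 0.681) in daf-2;bcl-11(bon125) worms. The list's medians were 0.01 in daf-2;bcl-11(bon125) worms and 0.09 in daf-2;bcl-11(bon144) worms (4 genes measured), -0.16 with bon125 alone and -0.15 with bon144 alone (3 measured).

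The receptor levels of daf-2 and wt worms could only be set side by side, because the 2 tables were normalised apart and the table cannot be told apart from the daf-2 allele. No test was run on these differences. Over the 170 members in both tables the median of daf-2 minus wt was 0.38 (quartiles 0.09 and 0.63, range -0.38 to 2.16), against 0.03 for all genes. Of these members 138 were higher and 32 lower in daf-2 worms. Past a 1.5-fold difference stood 52 members higher (30.6%), against 20.3% of all genes, and 0 lower, against 7.44%. In 85 members (50%) every daf-2 library was above every wt library, against 26.4% of all genes, and in 4 (2.35%) every daf-2 library was below, against 15.5%. Without daf-2 replicate 4 the median was 0.37.

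The same differences were taken between the double and the single mutants. In daf-2;bcl-11(bon125) minus bcl-11(bon125) the median was 0.46, against 0.03 for all genes, with 67 members past a 1.5-fold difference upward (39.4%), against 22.7%, and 0 downward, against 8.45%. In daf-2;bcl-11(bon144) minus bcl-11(bon144) it was 0.36, against 0.02 for all genes, with 50 upward (29.4%), against 20%, and 0 downward, against 7.94%. In all 3 pairs 40 members (23.5%) were past it upward, against 16.8% of all genes, and 0 downward, against 4.7%. The 3 pairs compare the same 2 tables and so share any difference in their normalisation.

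The size of these differences moved with scaling and level. When each library was centred on its median over the genes in both tables, the median of all genes shifted by 0.18, to -0.15. That of the members became 0.20. Centring moves every gene by the same amount, so the gap of 0.35 between these medians could not change. The count of members higher in daf-2 worms then was 114 and of members lower 56, and 32 (18.8%) were past a 1.5-fold difference upward, against 15.3% of all genes. Members with every daf-2 library above every wt library then numbered 63, against 19.4% of all genes, and members with every daf-2 library below 16, against 26.4% of all genes. A difference of about 0.18 or less, such as that of nhr-49, therefore has no settled direction. Among members with an average rlog of 3 to 5 (45 genes) the median difference was 0.56, against 0.23 for all genes of that level, from 5 to 7 (68 genes) 0.40, against 0.28, and from 7 to 9 (51 genes) 0.21, against 0.07. By batch the median over members was 0.27, 0.58, 0.20 and 0.49 for batches 1 to 4.

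Means of tissue marker lists differed between the same libraries, but not every gene of a list moved. The mean rlog of 5 epidermal genes was 8.79 to 9.06 in daf-2 and 7.88 to 8.39 in wt libraries. That of 5 neuronal genes was 7.52 to 7.83 in daf-2 and 7.30 to 7.39 in wt libraries, and neither list overlapped. Over the 12 libraries of a table, the epidermal gene dpy-7 averaged 8.54 in the daf-2 table and 4.88 in the wild-type table. In the same order col-19 was lower (14.33, 15.61), and bli-1 (3.34, 2.44), elt-3 (8.01, 7.72) and lin-26 (10.16, 10.08) were higher by less. Of the neuronal genes rab-3 (5.44, 5.46) and snb-1 (9.39, 9.32) hardly differed, and the others were higher. For 5 intestinal genes the mean rlog was 14.87, 15.61, 14.88 and 15.48 in daf-2 libraries and 14.61 to 15.42 in wt libraries. For 5 oocyte and eggshell genes it was 12.95, 12.44, 13.09 and 12.52 in daf-2 libraries and 12.74 to 13.37 in wt libraries. daf-2 replicates 2 and 4, of the batches with the larger member medians, had the highest intestinal and the lowest oocyte values of the daf-2 group. The part of tissue composition in the members' differences was not tested.

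**Figure D4:**
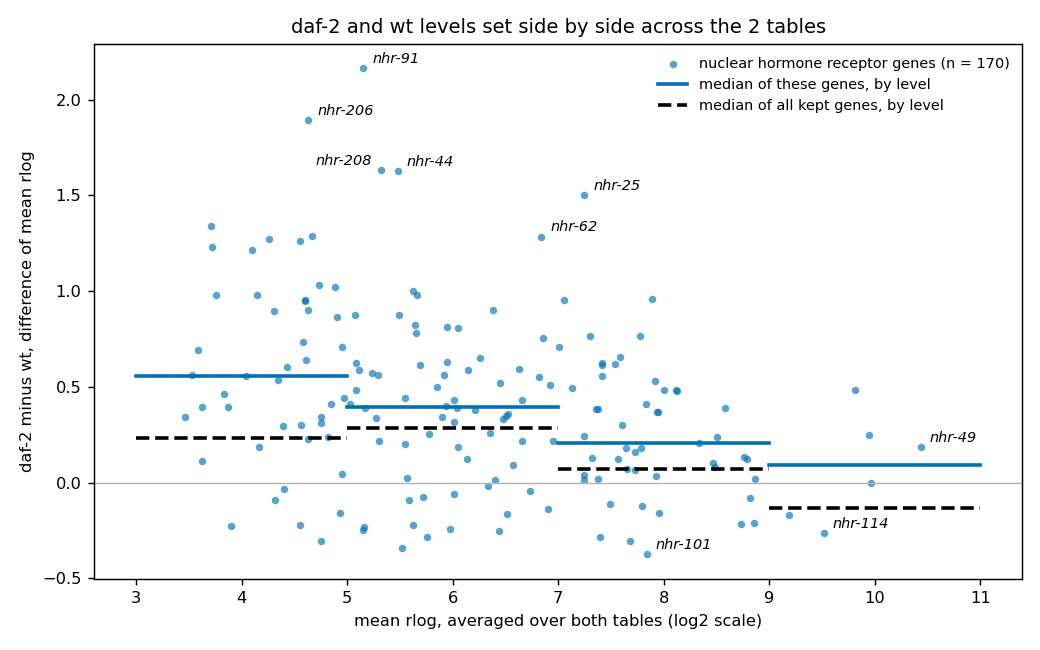
Difference in rlog between daf-2 and wt worms against the average rlog, for 170 nuclear hormone receptor genes (blue points); blue lines mark the members' medians by level and dashed black lines those of all genes. The members' medians lie above those of all genes, at 0.56 against 0.23 in the lowest level bin and 0.21 against 0.07 from 7 to 9, and the highest point is nhr-91 at 2.16; the tables were normalised apart and no test was run.

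The largest difference was that of nhr-91 (chromosome X, 15309369 to 15314899, plus strand), a receptor of the GCNF family. Its rlog was 5.87, 6.37, 6.22 and 6.17 in daf-2;bcl-11(bon125) libraries, 6.01, 6.03, 6.04 and 6.19 in daf-2;bcl-11(bon144) libraries and 6.01, 6.63, 6.17 and 6.19 in daf-2 libraries. Without daf-2(e1370) it was 4.14, 4.39, 4.13 and 3.93 in bcl-11(bon125) libraries, 4.21, 4.08, 4.43 and 4.08 in bcl-11(bon144) libraries and 3.96, 4.05, 3.93 and 4.41 in wt libraries. No library of the wild-type table reached the lowest of the daf-2 table, and within each table the 3 genotypes overlapped.

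nhr-206 (chromosome V, 12092006 to 12093873, plus strand) had 5.30, 5.82, 5.43 and 6.04 in daf-2 libraries and 3.73, 3.53, 3.91 and 3.84 in wt libraries (difference 1.89). Its neighbour nhr-208 (chromosome V, 12094317 to 12095895, plus strand) had 5.83, 6.32, 5.88 and 6.82 in daf-2 libraries and 4.41, 4.43, 4.73 and 4.76 in wt libraries (difference 1.63). The groups of both genes were far apart, and both were higher in daf-2 replicates 2 and 4 than in 1 and 3. Other members of the same run differed less, with a mean of 7.40 in daf-2 and 7.38 in wt worms for nhr-153 and of 6.71 in daf-2 and 6.49 in wt worms for nhr-136, at its right end. nhr-44 (chromosome V, 8961878 to 8964105, minus strand) had 6.24, 6.43, 6.19 and 6.15 in daf-2 libraries and 4.84, 4.65, 4.69 and 4.33 in wt libraries (difference 1.63), again without overlap.

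Among receptors with a role, nhr-25 (chromosome X, 13008493 to 13013964, plus strand) had 8.34, 8.16, 7.90 and 7.43 in daf-2 libraries and 7.07, 6.53, 6.06 and 6.16 in wt libraries (difference 1.50). All daf-2 values were above all wt values, with batch 1 highest in both. nhr-23 had 7.95, 7.87, 7.95 and 7.72 in daf-2 libraries and 7.91, 8.13, 7.67 and 8.42 in wt libraries, which overlapped (difference -0.16). The mean rlog of 5 moulting genes (all 5 present in both tables) was 8.77 ± 0.23 in daf-2 and 7.16 ± 0.35 in wt worms (SD, n = 4 each), with library ranges of 8.53 to 9.16 in the daf-2 table and 6.54 to 7.52 in the wild-type table. Over the 12 libraries of a table, mlt-11 averaged 10.12 in the daf-2 table and 6.95 in the wild-type table. In the same order noah-1 (11.06, 8.43), qua-1 (6.77, 5.14) and mlt-10 (7.05, 6.21) were also higher, and nas-37 (8.92, 8.86) hardly differed. The part of the moulting genes in the differences of nhr-25 and nhr-91 was not tested.

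nhr-62 (chromosome I, 9839598 to 9844809, plus strand) had 7.58, 7.68, 7.36 and 7.43 in daf-2 libraries and 6.07, 6.06, 6.87 and 5.90 in wt libraries (difference 1.28). Replicate 3 of wt stood apart from the others but still below every daf-2 library. The medians of daf-2 minus wt were 0.37 for the 7 lipid and fasting receptors, 0.24 for the 3 receptors of propionate and methionine, 0.24 for the 7 receptors of foreign compounds and sterols, and 0.59 for the 5 receptors of reproductive tissue, muscle and excretory cell. Among the known targets fat-7, a desaturase under NHR-49, had a mean rlog of 7.73 in daf-2 and 10.72 in wt worms, and fat-5 had 12.15 in daf-2 and 10.86 in wt worms, while nhr-49 had 10.48 ± 0.07 in daf-2 and 10.30 ± 0.04 in wt worms (SD, n = 4 each).

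**Figure D5:**
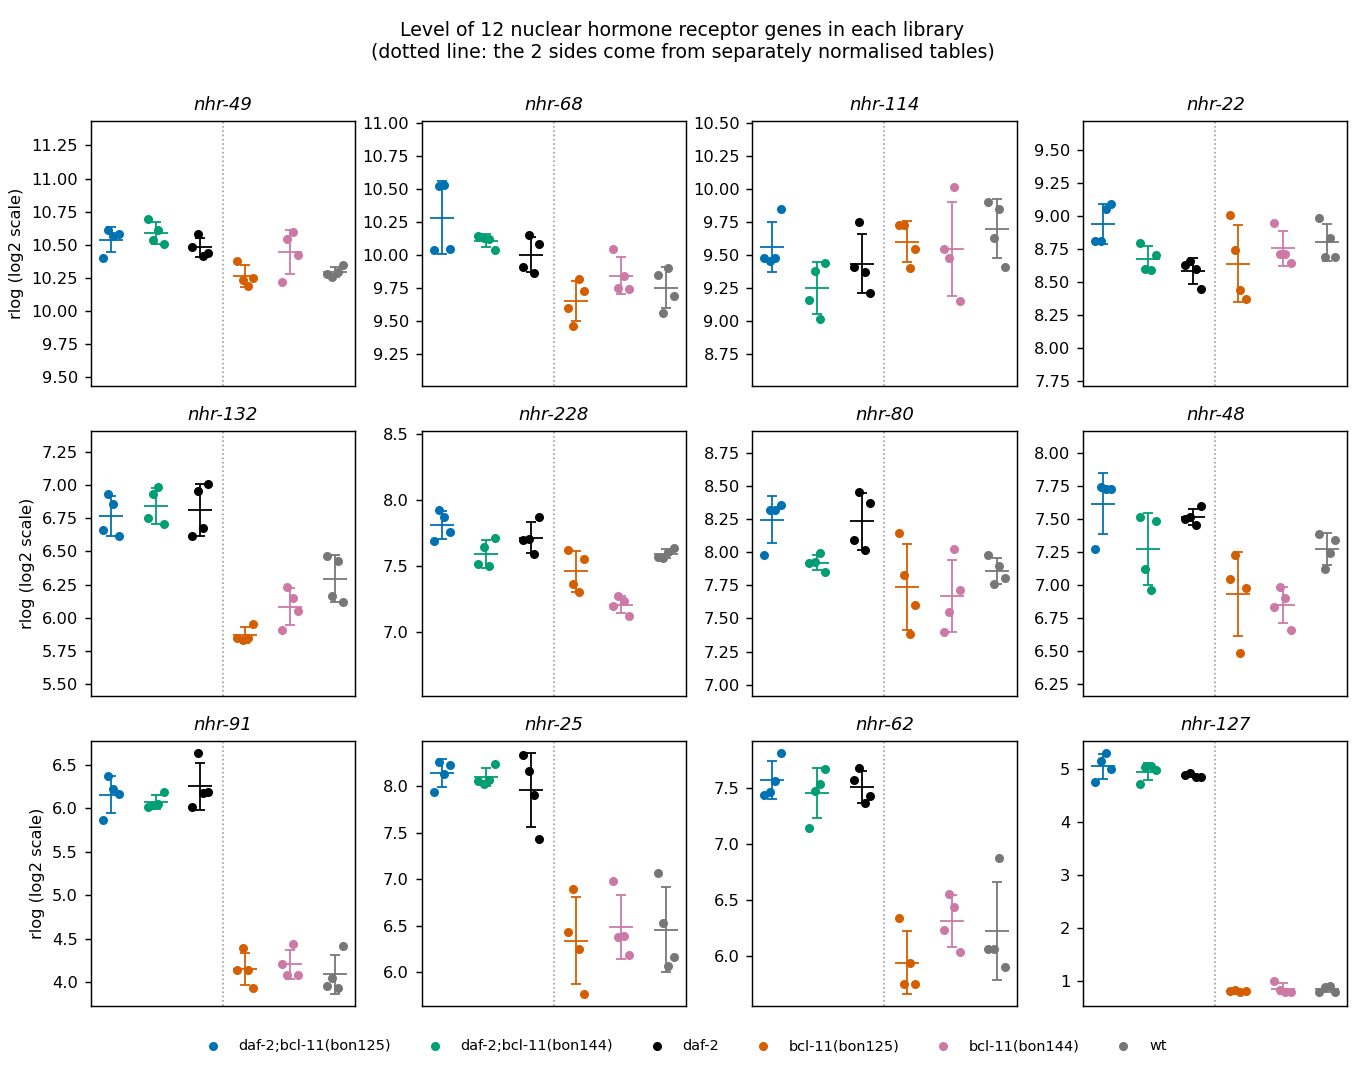
rlog (log2 scale) of 12 nuclear hormone receptor genes in the 24 libraries; points are libraries, bars are the mean ± SD of 4 libraries, and the dotted line separates the daf-2 table (left) from the wild-type table (right). Within a table the genotypes of most genes overlap, whereas nhr-91, nhr-25, nhr-62 and nhr-127 are higher throughout the daf-2 table than in the wild-type table (nhr-91 5.87 to 6.63 against 3.93 to 4.43).

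Lower levels in daf-2 than in wt worms were found for 32 of 170 members, and for 56 after centring. The lowest difference was that of nhr-101 (chromosome V, 11570476 to 11572549, plus strand), with 7.50, 7.74, 7.67 and 7.41 in daf-2 libraries and 7.88, 7.77, 8.14 and 8.03 in wt libraries. The daf-2 values lay below all wt values (difference -0.38), but between the double and single mutants the difference was 0.05 with bon125 and -0.34 with bon144. nhr-193 (-0.34), nhr-256 (-0.31), nhr-249 (-0.30) and nhr-161 (-0.29) followed. The chromosome X members had a median difference of 0.67, against 0.34 for all X genes, and those on chromosome V 0.38, against 0.08 for all V genes.

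Of the 10 members that reached the minimum in the daf-2 table alone, nhr-127 (chromosome V, 16259984 to 16263953, plus strand) stood furthest apart and was singled out after its values were seen. Its rlog was 4.74, 5.15, 5.29 and 4.99 in daf-2;bcl-11(bon125) libraries, 4.70, 5.03, 5.06 and 4.98 in daf-2;bcl-11(bon144) libraries and 4.87, 4.92, 4.84 and 4.85 in daf-2 libraries. In the wild-type table it was 0.79 to 1.00 in all 12 libraries, with a mean of 0.84 ± 0.06 in wt worms (SD, n = 4). The 2 sets of 12 libraries are separate, the difference of the means of daf-2 and wt worms was 4.03, and the gene overlaps 1 other gene, whose part in this value was not tested. nhr-221 (mean 4.35 in daf-2 and 2.07 in wt worms) and nhr-270 (3.41 in daf-2 and 1.61 in wt worms) came next, and the other 7 differed by 0.55 to 1.57. The 1 member with the opposite pattern, nhr-7, had 2.90 in daf-2 and 3.15 in wt worms. Reaching the minimum in 1 table alone sets which table mean is higher, so the direction of these differences is not a result.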

How the data were processed

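Total RNA of whole young adults was made into Smart-seq2 libraries from polyadenylated RNA, which do not keep the strand, and sequenced in paired-end mode. According to the methods and the submitters' processing notes, reads were demultiplexed with bcl2fastq 2.20 and assigned with kallisto 048.0 to Ensembl 109 transcripts (WBcel235). The authors deposited rlog values, normalised read counts on the log2 scale, in 2 tables that were normalised apart (19320 genes without and 19718 with daf-2(e1370)). The tool and version that made the rlog values are not given in the sources used here.

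Here gene names, positions and exon lengths came from the Ensembl 115 annotation (WBcel235), which named all IDs. Genes with a mean rlog of 3 or more in a table were tested with limma 3.58.1 (R 4.3.3) on the 3 genotypes of that table, with an intensity trend and Benjamini-Hochberg adjustment over all genes tested. Interactions were fitted over 24 libraries. The replicate number is the batch in the labels and so pairs the libraries; the mean correlation of the same-numbered libraries' deviations was 0.243 and 0.219 for the 2 comparisons of the wild-type table, and 0.0304 and 0.164 for those of the daf-2 table. The main design has no batch term, and the fit with it is an alternative. The limma step was tested on simulated data.

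The members and all gene lists were chosen with earlier results of these data known. Genes named are any member called, those of the role lists, the 3 highest and 3 lowest changes per comparison, the 5 highest length-adjusted levels in wt and daf-2 worms, the 3 largest SDs per table, and the 5 highest and 5 lowest differences between daf-2 and wt; nhr-47, nhr-61, nhr-115, nhr-127, nhr-139, nhr-228 and other genes named for groups that did not overlap or for an unadjusted p were chosen after their values were seen. Promoter motifs and protein sequences were not examined, since no genome sequence was used here.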

Additional observations from a re-analysis of the deposited data

Results flagged for a closer look

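Single libraries stood apart from the other 3 of their genotype in 10 of 198 sets of 4 by Dixon's ratio (32 receptor genes and the median over all members, in 6 genotypes), and chance gives about 1 in 20. In daf-2;bcl-11(bon125) worms these were nhr-114 at 9.85 (nearest 9.48), nhr-8 at 9.40 (nearest 8.80), nhr-48 at 7.27 (nearest 7.72) and nhr-80 at 7.98 (nearest 8.32). In daf-2 worms nhr-47 was at 9.06 (nearest 8.75). In bcl-11(bon125) worms nhr-132 was at 5.96 (nearest 5.85). In bcl-11(bon144) worms nhr-127 was at 1.00 (nearest 0.83) and nhr-115 at 6.64 (nearest 6.81), and in wt worms nhr-2 was at 9.58 (nearest 9.13) and nhr-62 at 6.87 (nearest 6.07).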

How the results depend on the processing

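No receptor gene was called in any comparison under any of 146 alternative fits, and the smallest adjusted p among them was 0.191 (limma with library weights, nhr-141 in bcl-11(bon144) worms). For the 50 named members 4074 values were recomputed, and 4070 were classed as staying on their side of the threshold and near their size. That class was broad and still held shifts as large as those of nhr-2 without daf-2 replicate 4. Classed as moved was nhr-40 in daf-2;bcl-11(bon144) worms, at 0.37 with library weights. With bcl-11(bon144) replicates 1 and 3 left out (chosen after seeing the data), so were nhr-66 at 0.22, nhr-130 at -0.41 and nhr-184 at 0.16 in bcl-11(bon144) worms. Counts over all genes moved more. With the replicate block the count of calls was 1 for bcl-11(bon125), 2 for bcl-11(bon144), 2 for daf-2;bcl-11(bon125) and 8 for daf-2;bcl-11(bon144), against 0, 9, 2 and 8 without it, and the block called no member. With only the genotypes compared it was 4 for bcl-11(bon125), 1 for bcl-11(bon144) and 3 for daf-2;bcl-11(bon144). For bcl-11(bon125) it was also 4 with library weights and without bcl-11(bon144) replicates 1 and 3, and for daf-2;bcl-11(bon144) it was 5 with genes of identical values counted once. Leaving out 1 library gave 0 to 4 calls for bcl-11(bon125) (4 without bcl-11(bon144) replicate 1), 1 to 17 for bcl-11(bon144) (17 without its own replicate 1), 2 to 4 for daf-2;bcl-11(bon125) (4 without daf-2 replicate 1) and 3 to 6 for daf-2;bcl-11(bon144); the cause was not tested. The members' median difference between daf-2 and wt was 0.20 with centred libraries and 0.33 to 0.43 with 1 library left out, against 0.38. Depth is unknown, so no limit from counts can be given.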
